A study of Mus musculus with 5 samples.

Results

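The interferon response genes described here are 45 mouse genes of type I and type II interferon signalling. They were chosen as a list of gene symbols and not by a rule on their values, but with earlier results of these data known. They are 45 of the 49260 symbols that could be given to the Ensembl IDs of the deposited tables, and all 45 had an ID in every table. The list holds the receptor chains Ifnar1 and Ifnar2, 4 transcription factors, 4 sensors, the ISG15 pair Isg15 and Usp18, 4 IFIT genes, 5 OAS genes, Mx1 and Mx2, 11 other targets, Parp9, Parp14 and Dtx3l, 4 guanylate-binding proteins, 3 immunity-related GTPases and the peptide transporter Tap1.

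The study sequenced mRNA of regulatory T cells (Tregs, the Foxp3-expressing CD4 T cells that restrain immune responses) sorted from adipose tissue and lymph nodes (LN). There were 5 libraries, 1 per group, all from C57BL/6 mice that carry Foxp3Cre, a Cre recombinase expressed in Foxp3-positive cells. The groups were adipose Tregs of 10-month-old Med23fl/fl;Foxp3Cre mice (the library labelled Med23 KO), adipose Tregs of 10-month-old Foxp3Cre mice (10-month Foxp3Cre), adipose Tregs of 4-month-old obese Foxp3Cre mice (obese adipose), adipose Tregs of 4-month-old Foxp3Cre mice (lean adipose) and LN Tregs of 4-month-old Foxp3Cre mice (LN). Med23 encodes a subunit of the Mediator complex, which links transcription factors to RNA polymerase, and only the library labelled Med23 KO carries the floxed allele. The title of the obese sample carries the tag HFD, commonly short for a high-fat diet, and the labels give no feeding protocol. The labels give neither the sort gate nor the number of mice behind a library. With 1 library per group there was no replicate, so no difference below was tested against the spread between mice.

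Type I interferons bind a receptor made of IFNAR1 and IFNAR2, whose kinases JAK1 and TYK2 activate the transcription factor STAT2. STAT2 works with IRF9 in a complex that binds interferon-stimulated response elements in front of target genes, while interferon gamma acts through gamma-activated sites. Many targets block viral replication, and USP18 and SOCS1 restrain the signal.

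The promoter windows of 7 members are printed to show where the response element core lies in genes that the results below turn on. They are RefSeq sequences of build GRCm38.p6, 300 bases each, from 250 bases before to 50 bases after the gene's start, 5′ to 3′ on the gene's strand. The Rsad2 window is chr12:26456403-26456702 on the minus strand. The Ifit1 window is chr19:34640639-34640938 on the plus strand. The Ifit3 window is chr19:34583279-34583578 on the plus strand. The Isg15 window is chr4:156200769-156201068 on the minus strand. The Ifih1 window is chr2:62646206-62646505 on the minus strand. The Oasl1 window is chr5:114922990-114923289 on the plus strand. The Ifnar1 window is chr16:91484965-91485264 on the plus strand. Capitals mark each match to the core of the interferon-stimulated response element, searched as GAAA, any 2 bases and GAAA on both strands, so that a match on the other strand reads TTTC, any 2 bases and TTTC.
Rsad2: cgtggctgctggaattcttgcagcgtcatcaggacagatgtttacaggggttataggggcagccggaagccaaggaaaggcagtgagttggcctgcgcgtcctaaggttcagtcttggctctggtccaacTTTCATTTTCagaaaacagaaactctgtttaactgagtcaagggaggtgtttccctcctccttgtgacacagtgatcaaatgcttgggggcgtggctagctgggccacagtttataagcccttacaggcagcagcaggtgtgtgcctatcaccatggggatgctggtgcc
Ifit1: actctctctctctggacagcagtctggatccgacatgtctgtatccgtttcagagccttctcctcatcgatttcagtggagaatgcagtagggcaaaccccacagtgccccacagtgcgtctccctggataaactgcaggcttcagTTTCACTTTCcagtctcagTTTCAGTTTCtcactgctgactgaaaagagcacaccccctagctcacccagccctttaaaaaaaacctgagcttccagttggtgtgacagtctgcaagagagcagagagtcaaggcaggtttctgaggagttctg
Ifit3: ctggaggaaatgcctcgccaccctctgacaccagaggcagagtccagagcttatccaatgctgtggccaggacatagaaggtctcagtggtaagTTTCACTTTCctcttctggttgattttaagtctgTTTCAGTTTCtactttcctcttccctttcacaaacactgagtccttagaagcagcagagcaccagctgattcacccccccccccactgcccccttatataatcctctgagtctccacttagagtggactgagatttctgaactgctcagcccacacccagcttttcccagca
Isg15: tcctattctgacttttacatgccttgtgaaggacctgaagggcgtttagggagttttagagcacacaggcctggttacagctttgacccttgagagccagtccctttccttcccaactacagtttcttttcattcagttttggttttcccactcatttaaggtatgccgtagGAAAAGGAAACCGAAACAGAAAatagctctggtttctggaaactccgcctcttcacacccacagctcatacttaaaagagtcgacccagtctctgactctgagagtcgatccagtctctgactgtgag
Ifih1: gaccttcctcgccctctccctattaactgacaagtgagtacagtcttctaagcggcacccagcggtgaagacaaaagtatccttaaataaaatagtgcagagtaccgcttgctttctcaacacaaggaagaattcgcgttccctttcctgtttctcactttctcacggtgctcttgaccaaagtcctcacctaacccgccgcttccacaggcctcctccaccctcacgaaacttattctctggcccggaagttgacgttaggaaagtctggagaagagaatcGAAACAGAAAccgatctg
Oasl1: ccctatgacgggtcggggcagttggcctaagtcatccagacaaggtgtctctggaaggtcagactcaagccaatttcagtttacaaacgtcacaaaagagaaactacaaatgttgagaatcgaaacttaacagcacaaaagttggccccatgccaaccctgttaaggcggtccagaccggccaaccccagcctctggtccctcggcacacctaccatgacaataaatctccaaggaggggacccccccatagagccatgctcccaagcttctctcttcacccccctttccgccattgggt
Ifnar1: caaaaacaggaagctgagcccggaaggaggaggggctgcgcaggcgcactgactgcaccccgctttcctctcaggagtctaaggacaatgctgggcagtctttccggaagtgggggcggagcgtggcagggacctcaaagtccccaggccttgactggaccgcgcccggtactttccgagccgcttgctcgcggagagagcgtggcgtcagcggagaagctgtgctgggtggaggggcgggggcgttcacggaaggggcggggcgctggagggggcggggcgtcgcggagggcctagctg
Isg15 held 3 matches that overlap one another, Ifit1 and Ifit3 held 2 each, and Rsad2 and Ifih1 held 1 each. The Ifih1 match lies within the bases after the start. Oasl1 and Ifnar1 held none, which says only that these letters are not in these windows.

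Of the 45 members, 33 had a window in the table and 12 had no entry. The core was found in 18 of the 33 members, counted over 19 of their 40 windows, or 47.5%. The share was 3.44% among all 32851 windows of the reference. All 4 GBP members, 3 of 4 IFIT members, both sensors with a window and both IRG members with a window carried it, whereas the 2 receptor genes did not. Tap1 and Dtx3l also lacked it. Of the members with a window, 1 of 4 transcription factors, 2 of 4 OAS members and 3 of 8 other targets carried it. The gamma-activated site core TTCNNNGAA was in 11 of 40 member windows, or 27.5%, and in 8.3% of all windows. The median log2 ratio of measured members with the response element core, set beside that of members whose window lacked it, was 0.53 and 0.51 in obese over lean adipose, -0.01 and -0.63 in lean adipose over LN, and 0.67 and 0.42 in obese adipose over LN. It was 0.17 and 0.36 in the library labelled Med23 KO over 10-month Foxp3Cre, -0.37 and -0.01 in 10-month Foxp3Cre over lean adipose, and -0.59 and -1.25 in 10-month Foxp3Cre over LN. These medians rest on 16 or 17 members with the core and 12 to 15 without it, and their differences were not tested.

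The listed values stood for 4595046 reads in the library labelled Med23 KO, 9650769 in 10-month Foxp3Cre, 7496496 in obese adipose, 8540594 in lean adipose and 9694474 in LN. Levels are given as CPM, the authors' scaled count with each column rescaled to a sum of 1000000. Foxp3 was above 0 in all 5 libraries, between 52.5 CPM in LN and 216 CPM in lean adipose. Med23 did not follow its label: it had 15.5 CPM in the library labelled Med23 KO and 6.32 CPM in 10-month Foxp3Cre. A value for the whole gene can include reads outside the floxed exons, so it does not by itself show whether the deletion took place. Xist was at 602, 440.4 and 228 CPM in the library labelled Med23 KO, 10-month Foxp3Cre and LN, while Ddx3y was at 562 and 559.7 CPM in obese and lean adipose and listed at 0 in the other 3 libraries, so the sex of the mice and the tissue cannot be told apart between 4-month adipose and LN. The housekeeping gene Gapdh had 10.7 CPM in obese adipose and 1.05 CPM in lean adipose, against 979 CPM in LN. Of 3943 genes at 20 CPM or more in the 3 other libraries, 27 were listed at 0 in both 4-month adipose libraries. Such zeros were not confined to these libraries. Among genes at 20 CPM or more in every other library, 68 of 3867 were listed at 0 in the library labelled Med23 KO. The counts were 60 of 4003 in LN, 23 of 3760 in lean adipose, 3 of 3729 in 10-month Foxp3Cre and 0 of 3590 in obese adipose. A member listed at 0 is therefore reported as that, with no fold.

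Members were listed above 0 in 37 of 45 cases in the library labelled Med23 KO, 38 in 10-month Foxp3Cre, 43 in obese adipose, 36 in lean adipose and 37 in LN. Over all genes, obese adipose also had the most above 0, at 13632. The numbers were 10784 in the library labelled Med23 KO, 11592 in 10-month Foxp3Cre, 11411 in lean adipose and 10666 in LN. In all 5 libraries 31 members were above 0, and Ifit3b was at 0 in each. The median member had 32.2 CPM in the library labelled Med23 KO, 19.5 CPM in 10-month Foxp3Cre, 46.6 CPM in obese adipose, 29.3 CPM in lean adipose and 34.2 CPM in LN. The highest value of a member lay in obese adipose for 14 members, in the library labelled Med23 KO for 11, in LN for 11, in 10-month Foxp3Cre for 5 and in lean adipose for 3. No library was therefore highest for most members. The same count of highest values was not made over all genes.

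**Figure D1:**
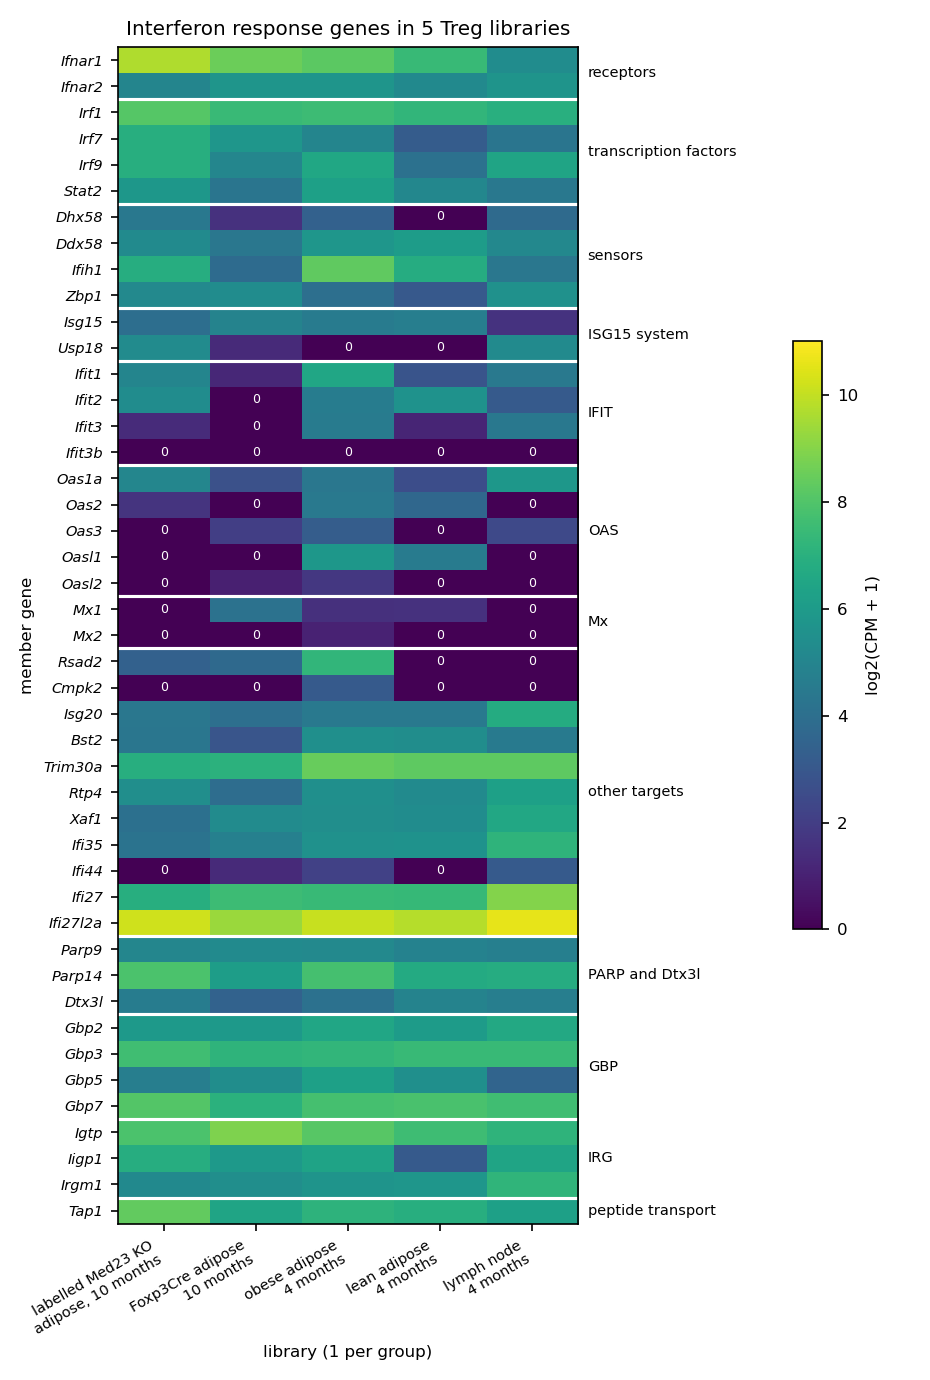
Levels of the 45 members (down the page, by role) in the 5 libraries (across), as log2(CPM + 1) on a colour scale, with a 0 printed where a gene is listed at 0. Ifnar1 is highest in the library labelled Med23 KO (829 CPM) and lowest in LN (39.9 CPM), and the IFIT, OAS and Mx blocks hold most of the values listed at 0.

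Among the receptor genes, Ifnar1, the chain bound by the kinase TYK2, differed most between tissues. It was at 829 CPM in the library labelled Med23 KO, 371 CPM in 10-month Foxp3Cre, 301 CPM in obese adipose, 169.5 CPM in lean adipose and 39.9 CPM in LN. All 4 adipose libraries were above LN. In scaled counts, lean adipose was 3.85-fold above LN (95% counting interval 3.44 to 4.32) and obese adipose 6.69-fold (6.01 to 7.48), and in CPM 10-month Foxp3Cre was 9.30-fold above LN (8.37 to 10.4). These intervals, exact Clopper-Pearson limits from the reads of 2 libraries, cover counting error only and treat reads without molecular identifiers as independent molecules. Ifnar2, the chain that docks STAT2, did not follow its partner. It was at 30.7 CPM in the library labelled Med23 KO, 52.4 CPM in 10-month Foxp3Cre, 52.0 CPM in obese adipose, 36.3 CPM in lean adipose and 51.3 CPM in LN. In these sorted bulk samples, more cells of a type and more RNA per cell cannot be told apart.

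The 4 transcription factors were above 0 in every library, and 3 of them were higher in obese than in lean adipose by 2-fold or more. By the same limit 34.0% of all 14764 measured genes were higher in obese adipose. Irf7, which drives a second wave of type I interferon, was at 116 CPM in the library labelled Med23 KO, 54.5 CPM in 10-month Foxp3Cre, 31.1 CPM in obese adipose, 8.31 CPM in lean adipose and 18.3 CPM in LN. Irf9, the DNA-binding partner of STAT2, was at 119 CPM in the library labelled Med23 KO, 32.5 CPM in 10-month Foxp3Cre, 93.5 CPM in obese adipose, 16.0 CPM in lean adipose and 85.2 CPM in LN. Lean adipose was the lowest library for both genes. Stat2 was at 56.4 CPM in the library labelled Med23 KO, 18.2 CPM in 10-month Foxp3Cre, 74.2 CPM in obese adipose, 33.5 CPM in lean adipose and 20.3 CPM in LN. Obese adipose was above lean adipose by 3.74-fold for Irf7 (2.85 to 4.95), 5.83-fold for Irf9 (4.85 to 7.05) and 2.21-fold for Stat2 (1.92 to 2.56). Irf1, a transcription factor induced by interferon gamma, stayed within a narrower range, at 272 CPM in the library labelled Med23 KO, 172 CPM in 10-month Foxp3Cre, 183 CPM in obese adipose, 150.5 CPM in lean adipose and 121 CPM in LN.

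Of the sensors, Ifih1 (MDA5, a cytosolic sensor of long double-stranded RNA) had the most reads and the widest range of values. Ifih1 was at 116 CPM in the library labelled Med23 KO, 13.5 CPM in 10-month Foxp3Cre, 316 CPM in obese adipose, 110.2 CPM in lean adipose and 19.3 CPM in LN. The 10-month Foxp3Cre and LN libraries were the low ones. Obese adipose was 2.87-fold above lean adipose (2.66 to 3.10), and the library labelled Med23 KO was 6.97-fold above 10-month Foxp3Cre in scaled counts (5.75 to 8.52). Dhx58 (LGP2), a regulator of the RNA sensors, was at 20.5 CPM in the library labelled Med23 KO, 1.97 CPM in 10-month Foxp3Cre, 9.74 CPM in obese adipose and 12.8 CPM in LN, and was listed at 0 in lean adipose. Ddx58 (RIG-I), which senses RNA with a 5′ triphosphate, ranged over 19.5 CPM in 10-month Foxp3Cre to 65.7 CPM in lean adipose and was thus highest where Dhx58 was listed at 0. Zbp1, a sensor of Z-form nucleic acids that can trigger cell death, had 15.2 CPM in obese adipose and 7.38 CPM in lean adipose, against 35.7 to 46.6 CPM in the other 3 libraries.

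Isg15, a ubiquitin-like protein attached to other proteins after interferon, and Usp18, which removes it and also restrains the receptor, did not follow each other. Isg15 was at 14.8 CPM in the library labelled Med23 KO, 28.9 CPM in 10-month Foxp3Cre, 22.8 CPM in obese adipose, 24.7 CPM in lean adipose and 2.06 CPM in LN. LN was the only low library for Isg15, and lean adipose exceeded it by 10.9-fold in scaled counts (6.85 to 18.1). Usp18 was at 38.5 CPM in the library labelled Med23 KO, 1.45 CPM in 10-month Foxp3Cre and 36.9 CPM in LN, and was listed at 0 in obese and lean adipose. The library labelled Med23 KO was 21.5-fold above 10-month Foxp3Cre for Usp18 in scaled counts (12.5 to 40.1).

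The IFIT genes encode proteins that bind foreign RNA and block its translation. Ifit1 was at 31.3 CPM in the library labelled Med23 KO, 1.35 CPM in 10-month Foxp3Cre, 90.0 CPM in obese adipose, 6.32 CPM in lean adipose and 20.6 CPM in LN. Obese adipose stood above all the others for Ifit1, 14.2-fold above lean adipose (10.8 to 19.2), and 10-month Foxp3Cre was the lowest. Ifit2 was at 39.6 CPM in the library labelled Med23 KO, 23.6 CPM in obese adipose, 48.5 CPM in lean adipose and 7.63 CPM in LN, and was listed at 0 in 10-month Foxp3Cre. Ifit2 was the 1 member past 2-fold in favour of lean adipose when obese and lean adipose were compared, whereas Ifit1 differed the other way. Ifit3 was at 1.52 CPM in the library labelled Med23 KO, 22.5 CPM in obese adipose, 1.17 CPM in lean adipose and 20.2 CPM in LN, and was listed at 0 in 10-month Foxp3Cre. Ifit3b, a near-identical copy of Ifit3, was listed at 0 in all 5 libraries, and since the read counter is not given, reads may have been assigned to either copy or dropped. Summed over the family, IFIT genes had 72.5 CPM in the library labelled Med23 KO, 1.35 CPM in 10-month Foxp3Cre, 136 CPM in obese adipose, 56.0 CPM in lean adipose and 48.5 CPM in LN.

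The OAS enzymes make 2′-5′ oligoadenylates that activate the ribonuclease RNase L, and Oasl1 is a relative that in mouse restrains Irf7 translation. Oas1a, the OAS member with the most reads, was at 32.2 CPM in the library labelled Med23 KO, 5.60 CPM in 10-month Foxp3Cre, 19.3 CPM in obese adipose, 5.15 CPM in lean adipose and 55.8 CPM in LN. The 10-month Foxp3Cre and lean adipose libraries were low for it. Oasl1 showed a different pattern, at 55.8 CPM in obese adipose and 22.7 CPM in lean adipose and listed at 0 in the library labelled Med23 KO, in 10-month Foxp3Cre and in LN. Oas2 was at 2.18 CPM in the library labelled Med23 KO, 20.7 CPM in obese adipose and 11.9 CPM in lean adipose, and was listed at 0 in 10-month Foxp3Cre and LN. Thus Oas2 and Oasl1 were above 10 CPM in the 4-month adipose libraries alone. Oas3 was at 3.11 CPM in 10-month Foxp3Cre, 8.40 CPM in obese adipose and 4.33 CPM in LN and was listed at 0 in the other 2 libraries, and Oasl2 did not exceed 2.40 CPM in any library. Oas1a, Oasl1 and Oasl2 have close relatives in the mouse genome, which limits how far their values can be separated.

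Mx1, a gene of the Mx GTPase family, was at 16.8 CPM in 10-month Foxp3Cre, 1.87 CPM in obese adipose and 1.99 CPM in lean adipose, and was listed at 0 in LN and in the library labelled Med23 KO. It was the 1 member of the IFIT, OAS and Mx families whose highest value lay in 10-month Foxp3Cre. Mx2 was above 0 in obese adipose alone, at 1.07 CPM, which stood for 8 reads.

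Rsad2 (viperin, an enzyme that makes a chain-terminating nucleotide) had the largest log2 ratio of any member between obese and lean adipose, 7.25 with 1 CPM added to both values. It was at 9.58 CPM in the library labelled Med23 KO, 12.7 CPM in 10-month Foxp3Cre and 152 CPM in obese adipose, and was listed at 0 in lean adipose and LN. Cmpk2, its neighbour in the genome and the kinase that supplies its substrate, was above 0 in obese adipose alone, at 7.60 CPM. Ifi44 had 1.45 CPM in 10-month Foxp3Cre, 3.33 CPM in obese adipose and 7.63 CPM in LN and was listed at 0 in the other 2 libraries.

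Of the remaining targets in this group, 6 were highest in LN, as Ifi44 was. Isg20, an RNA exonuclease, was at 19.6 CPM in the library labelled Med23 KO, 15.3 CPM in 10-month Foxp3Cre, 20.8 CPM in obese adipose, 20.6 CPM in lean adipose and 108 CPM in LN. Ifi35 ranged over 17.4 to 48.0 CPM in the adipose libraries against 140.0 CPM in LN, Xaf1 over 15.9 to 42.6 CPM against 94.7 CPM, and Rtp4 over 14.2 to 43.9 CPM against 74.9 CPM. Ifi27 and Ifi27l2a, small proteins of the mitochondrion and nuclear envelope, were also highest in LN. Ifi27 had at most 183 CPM in adipose, against 504 CPM in LN. Ifi27l2a, the member with the most reads of all, was at 1186 CPM in the library labelled Med23 KO, 654 CPM in 10-month Foxp3Cre, 1084 CPM in obese adipose, 867 CPM in lean adipose and 1554 CPM in LN. Each of these 6 genes was thus higher in LN than in all 4 adipose libraries. The largest fold among them between obese and lean adipose was 1.25, for Ifi27l2a. Bst2 (tetherin, which holds budding virions at the cell surface) was at 43.6 CPM in obese adipose and 41.0 CPM in lean adipose and lower elsewhere, down to 6.53 CPM in 10-month Foxp3Cre. Trim30a, a member of a cluster of near-identical TRIM genes, was at 119 CPM in the library labelled Med23 KO and 131 CPM in 10-month Foxp3Cre, against 305 to 351 CPM in the 3 libraries of 4-month mice.

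Parp14, an ADP-ribosyltransferase, was at 237 CPM in the library labelled Med23 KO, 69.6 CPM in 10-month Foxp3Cre, 212 CPM in obese adipose, 103 CPM in lean adipose and 111 CPM in LN. The library labelled Med23 KO and obese adipose were the high ones. Parp9 ranged over 25.9 CPM in LN to 37.7 CPM in 10-month Foxp3Cre, and Dtx3l, the ubiquitin ligase that pairs with PARP9, over 10.1 CPM in 10-month Foxp3Cre to 29.3 CPM in lean adipose, so the 2 partners were highest in different libraries.

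The guanylate-binding proteins, GTPases that attack the vacuoles of intracellular pathogens, varied little. Gbp7 was at 266 CPM in the library labelled Med23 KO, 131 CPM in 10-month Foxp3Cre, 215 CPM in obese adipose, 231 CPM in lean adipose and 198 CPM in LN. Gbp2 ranged over 58.3 to 99.4 CPM and Gbp3 over 142 to 197 CPM in the 5 libraries. Neither reached 2-fold in any of the 6 comparisons. Gbp5 was the exception, at 10.7 CPM in LN against 24.8 to 75.1 CPM in the adipose libraries.

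The immunity-related GTPases and Tap1 had 4 different patterns. Igtp (Irgm3) was at 233 CPM in the library labelled Med23 KO, 469 CPM in 10-month Foxp3Cre, 278 CPM in obese adipose, 192 CPM in lean adipose and 141 CPM in LN, highest in 10-month Foxp3Cre. Iigp1 was at 113 CPM in the library labelled Med23 KO, 59.7 CPM in 10-month Foxp3Cre, 83.5 CPM in obese adipose, 7.73 CPM in lean adipose and 86.1 CPM in LN. Lean adipose stood alone as the low library for Iigp1, and obese adipose exceeded it by 10.8-fold (8.38 to 14.1). Irgm1 had 36.3 to 54.4 CPM in the adipose libraries against 146 CPM in LN. Tap1, which carries peptides into the endoplasmic reticulum for MHC class I, was at 331 CPM in the library labelled Med23 KO, 85.6 CPM in 10-month Foxp3Cre, 137 CPM in obese adipose, 119 CPM in lean adipose and 75.1 CPM in LN.

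**Figure D2:**
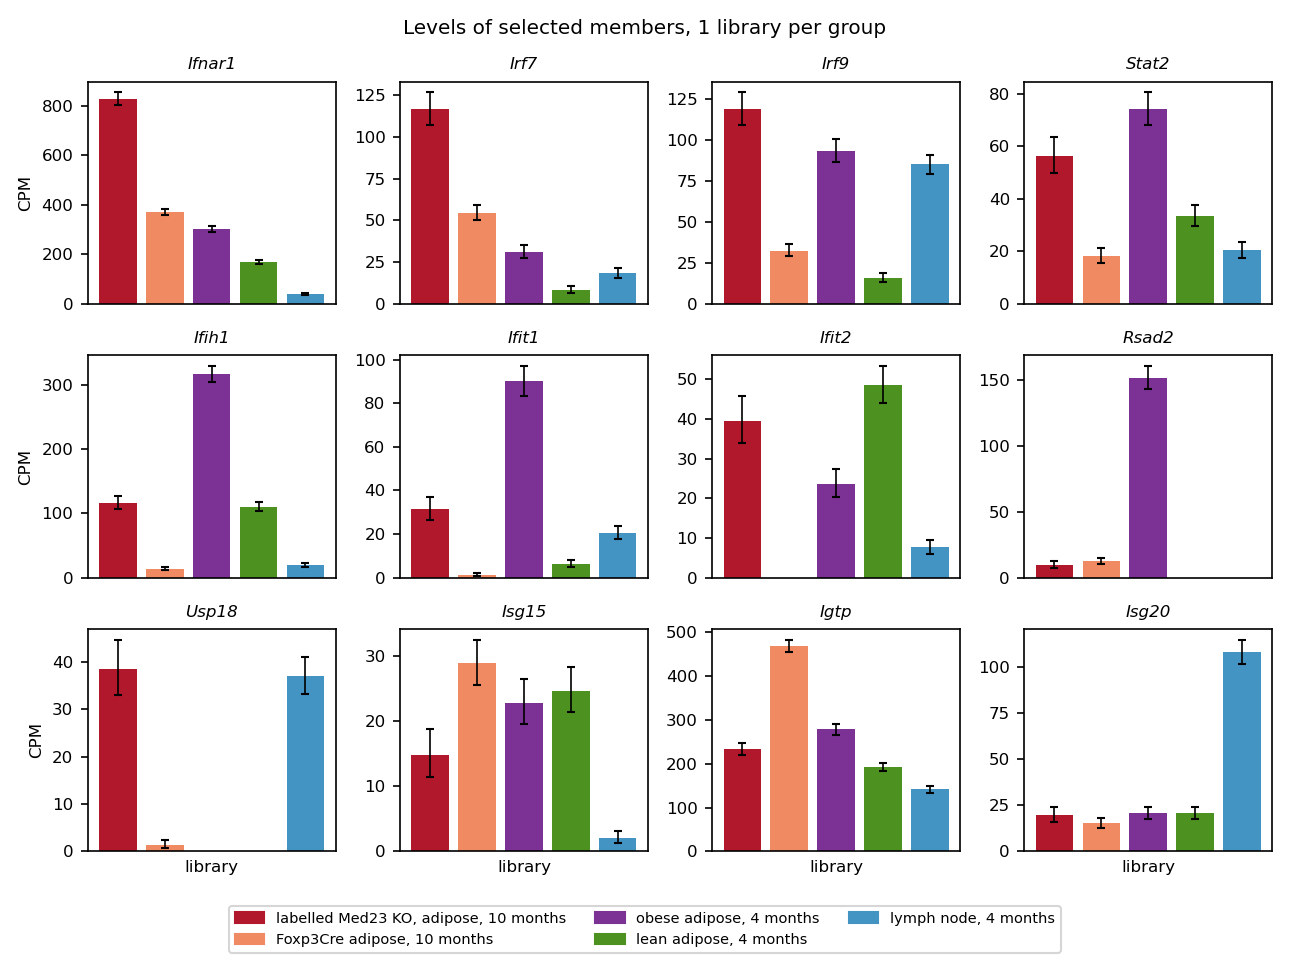
Levels of 12 members in CPM (vertical axes, each from 0), with 1 bar per library in the order of the legend and 95% Poisson counting intervals as error bars. Rsad2 reaches 152 CPM in obese adipose, Usp18 is listed at 0 in both 4-month adipose libraries, and Isg20 stands at 108 CPM in LN above all adipose bars.

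Obese adipose against lean adipose asks how obesity relates to the response at 4 months. Of 43 measured members, 17 (39.5%) were higher in obese adipose by 2-fold or more and 1 (2.33%) was lower. Measured means 1 or more in either library. The 2-fold limit was set on log2((value + 1)/(value + 1)), a scale that shrinks the ratios of low genes. By the same limit 34.0% of all 14764 measured genes were higher and 18.6% lower, so the share of higher members was near the background, while the share of lower members was well under it. The median log2 ratio was 0.53 for members and 0.20 for all measured genes. The higher members were Irf7, Irf9 and Stat2 among the transcription factors, Dhx58 and Ifih1 among the sensors, Ifit1 and Ifit3, Oas1a, Oas3, Oasl1 and Oasl2, Mx2, Rsad2, Cmpk2 and Ifi44, Parp14 and Iigp1. None of the receptor, GBP, ISG15 or peptide transport members passed 2-fold, and Isg15 differed by a ratio of 1.08 (0.881 to 1.33). Low genes are called more often: among genes whose 2 values averaged 20 CPM or more, 8 of 31 members (25.8%) were higher and 1 (3.23%) lower, beside 13.0% and 12.1% of 6464 genes. Of the 17 higher members 10 were above 0 in both libraries, out of 36 members above 0 in both, and the others were listed at 0 in lean adipose. The share of all genes above 0 in both libraries that were higher was not computed.

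Most macrophage and dendritic cell markers moved with this comparison. Of 19 measured, 18 were higher in obese adipose by 2-fold or more and 1 was lower, beside 34.0% and 18.6% of all measured genes. The lower one was Xcr1, at 8.54 CPM in obese adipose and 18.9 CPM in lean adipose. The summed level over 20 markers was 6454 CPM in obese adipose, with 19 above 0, and 1189 CPM in lean adipose, with 16 above 0, against 39.5 CPM in LN, with 4 above 0. In the 10-month libraries the sum was 143 CPM in the library labelled Med23 KO, with 9 above 0, and 715 CPM in 10-month Foxp3Cre, with 14 above 0. The markers Csf1r, Cd68 and Mrc1 were listed at 0 in LN and the library labelled Med23 KO, but others of the list were not. Lyz2 had 53.3 CPM in the library labelled Med23 KO and 7.01 CPM in LN, and Xcr1 had 12.0 and 22.4 CPM. Clec9a was at 0 in all 5 libraries. The sum over 7 plasmacytoid dendritic cell markers was 21.6 CPM in obese adipose and 1.05 CPM in lean adipose, and the defining marker Siglech was listed at 0 in both. Fibroblast and mesothelial markers went the other way, at 14.7 CPM in obese adipose and 984 CPM in lean adipose. Dcn made up 791 CPM of the lean adipose sum. The mesothelial markers Msln, Upk3b and Krt19 were listed at 0 in all 5 libraries, and Wt1 had 2.81 CPM in lean adipose alone. Other lists differed too. The adipocyte list summed to 659.6 CPM in obese adipose and 63.9 CPM in lean adipose, mostly from Cd36 and Fabp4. The list of CD8 T cell and natural killer cell markers summed to 65.5 CPM in obese adipose and was at 0 in lean adipose. The B cell sums were 139 and 47.4 CPM and the erythroid sums 1066 and 584 CPM. The part of these cell types in the members' values was not tested.

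**Figure D3:**
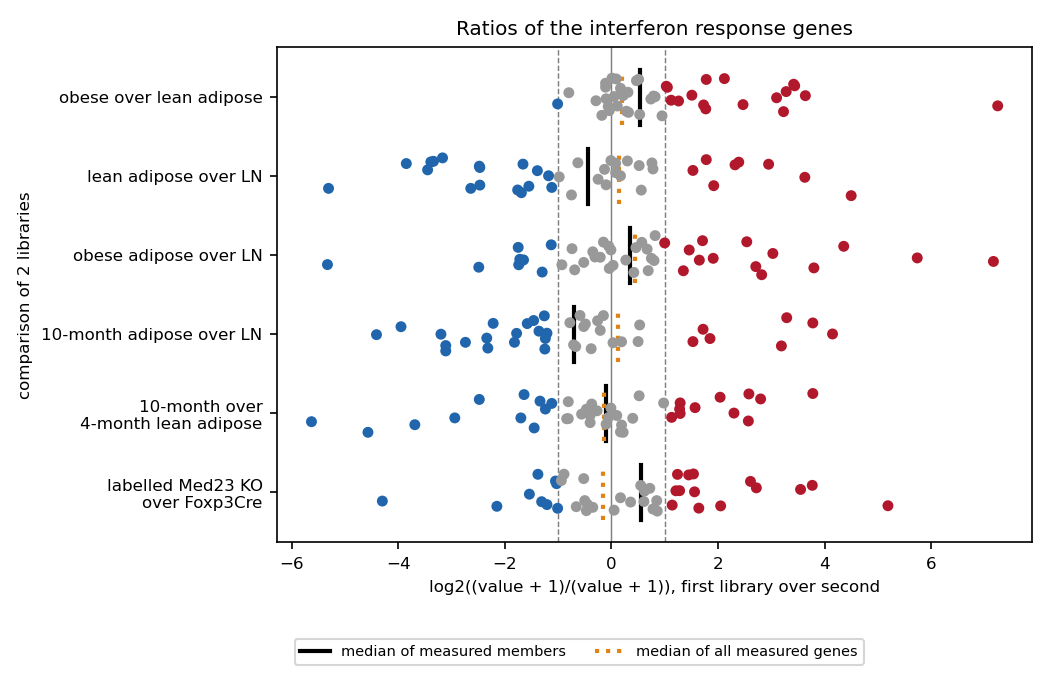
Log2 ratios of the measured members (1 point each) in 6 comparisons of 2 libraries, with members past 2-fold in red (higher in the first library) or blue (lower), black bars at the members' median and dotted bars at the median of all measured genes. In obese over lean adipose 17 points lie above 2-fold and 1 below, and in lean adipose over LN 8 lie above and 17 below.

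Lean adipose against LN asks how the adipose location relates to the response in lean mice. More members were lower in lean adipose than higher: of 40 measured members 8 were higher by 2-fold or more and 17 (42.5%) lower, beside 37.6% and 32.1% of 13501 genes. The median log2 ratio was -0.44 for members and 0.14 for all genes. The transcription factors Irf7 and Irf9 were lower in lean adipose by 2.42-fold (1.83 to 3.24) and 5.86-fold (4.89 to 7.07). Zbp1 was 6.97-fold lower (5.35 to 9.23), Oas1a 12.0-fold lower (8.78 to 16.6) and Iigp1 12.3-fold lower (9.56 to 16.1). The 8 higher members included Ifnar1, Isg15, Gbp5 at 3.64-fold (2.92 to 4.57), Ifih1 at 5.18-fold (4.42 to 6.09) and Ifit2 at 5.76-fold (4.48 to 7.47), together with Oas2, Oasl1 and Mx1, which were listed at 0 in LN. Markers of other cells differed here too: beside the macrophage and dendritic cell sums above, the 10 fibroblast and mesothelial markers summed to 984 CPM in lean adipose, with 7 above 0, against 8.56 CPM in LN, with 1 above 0. Dcn alone had 791 CPM in lean adipose. The 6 erythroid markers summed to 584 CPM in lean adipose, with 4 above 0, and were all listed at 0 in LN. Their part in the members' values was not tested.

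Obese adipose against LN gave a more even split, with 14 of 44 measured members (31.8%) higher by 2-fold or more and 9 (20.5%) lower, beside 41.7% and 23.7% of 14671 genes. After the median of all measured genes, 0.44, was subtracted from each ratio, the split was 12 higher and 12 lower. Both shares of members were under the background, and the median log2 ratio of members was 0.34. Ifih1 was 14.6-fold higher in obese adipose (12.5 to 17.0), Gbp5 6.22-fold (5.04 to 7.74) and Stat2 3.24-fold (2.75 to 3.83). Isg20 was 5.84-fold lower (4.93 to 6.95), Zbp1 3.45-fold lower (2.80 to 4.28) and Irgm1 3.26-fold lower (2.90 to 3.66). The erythroid markers summed to 1066 CPM and 6 adipocyte markers to 659.6 CPM in obese adipose, and all genes of both lists were listed at 0 in LN. Of the adipocyte list, Cd36 had 362 CPM and Fabp4 294 CPM in obese adipose. Adipoq and Cidec had 1.87 CPM each in obese adipose, and Plin1 and Lep were listed at 0. The part of both lists in the members' values was not tested.

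The 2 comparisons with LN share the LN library, so their values are set side by side without a measure of likeness. For the receptor genes the log2 ratio to LN was 2.71 in obese adipose and 1.92 in lean adipose for Ifnar1, and -0.15 in obese adipose and -0.63 in lean adipose for Ifnar2. For the transcription factors it was 0.57 in obese adipose and -1.18 in lean adipose for Irf7, -0.04 in obese adipose and -2.48 in lean adipose for Irf9, 1.65 in obese adipose and 0.56 in lean adipose for Stat2, and 0.42 in obese adipose and 0.17 in lean adipose for Irf1. Iigp1 had -0.21 in obese adipose and -3.45 in lean adipose, so that its obese adipose value, like that of Irf9, lay close to LN. Ifit1 was the 1 member past 2-fold in opposite directions, with a log2 ratio to LN of 1.91 in obese adipose and -1.69 in lean adipose.

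The 10-month Foxp3Cre library against LN repeats the tissue comparison with other adipose mice, but tissue, age and deposited table cannot be told apart in it. Of 39 measured members 7 (17.9%) were higher by 2-fold or more and 18 (46.2%) lower, beside 34.7% and 29.0% of 12996 genes. The median log2 ratio of members was -0.71. Among the 11 other targets, 10 were measured and 9 of them were at least 2-fold lower in 10-month Foxp3Cre, for example Isg20 at 7.04-fold (5.92 to 8.41), Rtp4 at 5.28-fold (4.39 to 6.38) and Ifi35 at 5.20-fold (4.55 to 5.96). Rsad2 was the exception, at 12.7 CPM in 10-month Foxp3Cre and listed at 0 in LN. Ifit1 was 15.3-fold lower (8.75 to 29.3) and Usp18 25.5-fold lower (15.0 to 47.0), whereas Isg15 was 14.0-fold higher (8.90 to 23.3). The erythroid markers summed to 1202 CPM in 10-month Foxp3Cre, and the plasma cell gene Jchain was at 994 CPM there, while Jchain and all erythroid markers were listed at 0 in LN. Their part in the members' values was not tested.

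Age was compared between 10-month Foxp3Cre and 4-month lean adipose, which came from separate tables and differed in Ddx3y as given above, so age, sex and table cannot be told apart. The members did not lean one way: of 41 measured, 11 (26.8%) were higher by 2-fold or more and 11 (26.8%) lower, beside 28.7% and 32.0% of 13671 genes. Irf7 was 6.56-fold higher at 10 months (5.11 to 8.52), Iigp1 7.72-fold (5.98 to 10.1), Zbp1 5.46-fold (4.18 to 7.25) and Mx1 8.43-fold (5.11 to 14.8). Ifih1 was 8.18-fold lower at 10 months (6.80 to 9.90), Bst2 6.28-fold lower (4.79 to 8.35) and Ddx58 3.37-fold lower (2.85 to 4.00), and Ifit2, Oas2 and Oasl1 were listed at 0. Markers of other cells differed as well. Jchain was at 994 CPM in 10-month Foxp3Cre and 32.2 CPM in lean adipose. The fibroblast and mesothelial sums were 48.9 and 984 CPM. Of 17 measured macrophage and dendritic cell markers, 13 were lower at 10 months by 2-fold or more and 1 was higher. The part of these cells in the members' values was not tested.

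The library labelled Med23 KO against 10-month Foxp3Cre asks how the Med23 deletion relates to the response, with the limit that the whole-gene Med23 value was not lower in the library with that label. Of 41 measured members 14 (34.1%) were higher by 2-fold or more in the library labelled Med23 KO and 9 (22.0%) lower, beside 28.6% and 34.9% of 13496 genes. The median log2 ratio was 0.55 for members and -0.15 for all genes. In CPM, where ratios to 10-month Foxp3Cre are 1.23-fold larger than in scaled counts, 18 members were higher and 5 lower, and after subtraction of the median of all genes 16 were higher and 6 lower. Among genes whose 2 values averaged 20 or more the split was nearly even, with 6 of 26 members (23.1%) higher and 5 (19.2%) lower, beside 18.4% and 23.8% of 6170 genes. The higher members included Irf9 at 2.96-fold (2.57 to 3.42), Stat2 at 2.50-fold (2.06 to 3.05), Ifih1, Dhx58 at 8.42-fold (5.10 to 14.6), Usp18, Ifit1 at 18.8-fold (10.7 to 36.2), Oas1a at 4.66-fold (3.39 to 6.49), Parp14 at 2.76-fold (2.50 to 3.04) and Tap1 at 3.13-fold (2.87 to 3.41). Lower members included Xaf1 at 3.04-fold (2.36 to 3.96), Igtp at 2.49-fold (2.33 to 2.66), Isg15 at 2.41-fold (1.84 to 3.19) and Ifnar2 at 2.11-fold (1.75 to 2.56), and Mx1 was listed at 0 in the library labelled Med23 KO. Ifnar1 was 1.81-fold higher in scaled counts (1.73 to 1.89) and 2.23-fold higher in CPM, so the scaling decided whether it passed 2-fold. Erythroid markers also differed, with a sum over 6 genes of 8943 CPM in the library labelled Med23 KO and 1202 CPM in 10-month Foxp3Cre, and their part in the members' values was not tested.

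The other genes of the pathway, 105 ligands, receptors, kinases, restraining factors, sensing genes and further targets, were counted from a list of their own. In obese over lean adipose 25 of 92 measured (27.2%) were higher by 2-fold or more and 4 (4.35%) lower, both under the background of 34.0% and 18.6%. In lean adipose over LN 22 of 87 (25.3%) were higher and 35 (40.2%) lower, beside 37.6% and 32.1% of all measured genes. In obese adipose over LN 29 of 93 (31.2%) were higher and 21 (22.6%) lower, beside 41.7% and 23.7%. In the library labelled Med23 KO over 10-month Foxp3Cre 19 of 86 (22.1%) were higher and 24 (27.9%) lower, beside 28.6% and 34.9%. In 10-month Foxp3Cre 17 of 89 (19.1%) were higher and 24 (27.0%) lower than in lean adipose, beside 28.7% and 32.0%, and 23 of 87 (26.4%) were higher and 31 (35.6%) lower than in LN, beside 34.7% and 29.0%. Shares above the background were thus found among the lower calls of the lean adipose and 10-month comparisons with LN.

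Of the ligands, Ifnb1 (interferon beta) was at 44.8 CPM in obese adipose and listed at 0 in the other 4 libraries. Ifng (interferon gamma) was at 106 CPM in the library labelled Med23 KO, 138 CPM in obese adipose, 118 CPM in lean adipose and 131 CPM in LN, and was listed at 0 in 10-month Foxp3Cre. The genes Ifna1, Ifna2 and Ifna4 were listed at 0 throughout, and Ifna5 had 2.83 CPM in the library labelled Med23 KO alone.

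The kinase gene Jak1 ranged over 533 CPM in LN to 967 CPM in the library labelled Med23 KO, and Tyk2 over 24.4 CPM in lean adipose to 58.6 CPM in LN. Ifngr1, the ligand-binding chain of the interferon gamma receptor, was at 978 CPM in the library labelled Med23 KO, 2817 CPM in 10-month Foxp3Cre, 1573 CPM in obese adipose, 1532 CPM in lean adipose and 437 CPM in LN. Like Ifnar1 it was above LN in all 4 adipose libraries. Ifngr2 was at 151 CPM in the library labelled Med23 KO, 93.6 CPM in 10-month Foxp3Cre, 63.1 CPM in obese adipose, 23.9 CPM in lean adipose and 43.6 CPM in LN.

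**Figure D4:**
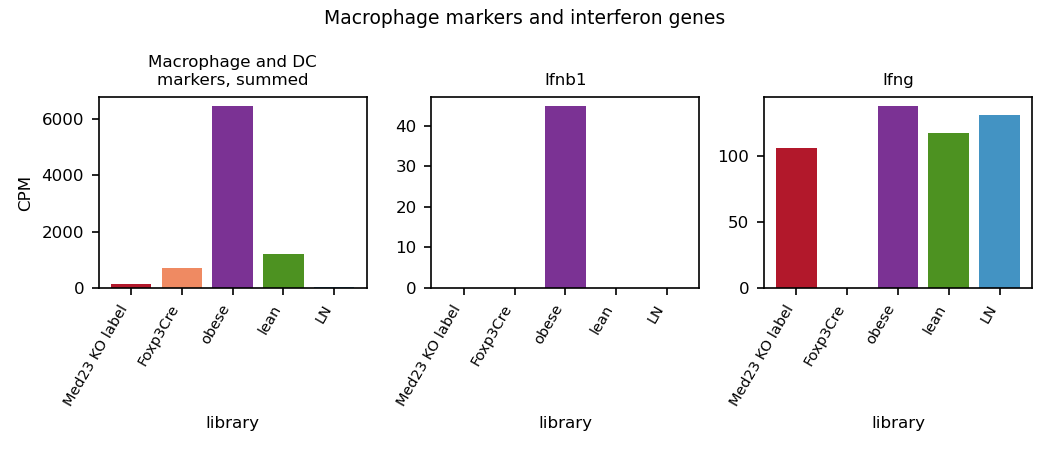
Summed level of 20 macrophage and dendritic cell markers and levels of Ifnb1 and Ifng, in CPM (vertical axes from 0), with 1 bar per library. The marker sum (6454 CPM) and Ifnb1 (44.8 CPM) are highest in obese adipose, and Ifng is listed at 0 in 10-month Foxp3Cre alone.

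The other pathway genes with the largest ratios were mostly listed at 0 in 1 of the 2 libraries. Myd88, an adaptor of Toll-like receptors, was at 39.8 CPM in the library labelled Med23 KO, 2.90 CPM in 10-month Foxp3Cre, 21.1 CPM in obese adipose and 1.24 CPM in LN, and was listed at 0 in lean adipose. Ifitm1, a membrane protein that hinders viral entry, was at 6.31 CPM in the library labelled Med23 KO, 4.25 CPM in 10-month Foxp3Cre and 18.3 CPM in obese adipose, and was listed at 0 in lean adipose and LN. Its close relative Ifitm3 was at 13.9 CPM in the library labelled Med23 KO, 12.4 CPM in 10-month Foxp3Cre, 219 CPM in obese adipose and 158 CPM in lean adipose, and was listed at 0 in LN. In lean adipose one of these relatives was thus listed at 0 and the other was high. Tdrd7 was at 11.2 CPM in 10-month Foxp3Cre, 7.20 CPM in obese adipose and 3.30 CPM in LN and was listed at 0 in the other 2 libraries.

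The interferon-inducible genes Ifi204 and Ifi205 were both listed at 0 in LN and the library labelled Med23 KO. Ifi204 was at 21.4 CPM in 10-month Foxp3Cre, 68.2 CPM in obese adipose and 53.2 CPM in lean adipose, and Ifi205 at 9.01 CPM in 10-month Foxp3Cre, 12.0 CPM in obese adipose and 69.1 CPM in lean adipose. Irf5, a transcription factor of Toll-like receptor signalling, was at 11.5 CPM in the library labelled Med23 KO, 34.6 CPM in 10-month Foxp3Cre, 27.5 CPM in obese adipose and 26.6 CPM in lean adipose, and was listed at 0 in LN. By listed values these 3 genes were thus above 0 in adipose alone. Behind the LN values listed at 0 were 7 reads of Ifi204, 0 of Ifi205 and 9 of Irf5. Slfn5 and Tlr7 were listed at 0 in both 10-month libraries, against 45.2 and 42.2 CPM in obese adipose, 56.1 and 15.1 CPM in lean adipose and 29.7 and 28.1 CPM in LN. Slfn1 was listed at 0 in the library labelled Med23 KO and was at 46.1 CPM in 10-month Foxp3Cre, 51.1 CPM in obese adipose, 24.7 CPM in lean adipose and 138 CPM in LN. Ifi30, a lysosomal thiol reductase, was at 5.22 CPM in the library labelled Med23 KO, 17.4 CPM in 10-month Foxp3Cre and 13.8 CPM in LN, and was listed at 0 in both 4-month adipose libraries. Ly6a (Sca-1) was above 0 throughout, at 78.1 CPM in the library labelled Med23 KO, 1486 CPM in 10-month Foxp3Cre, 679.9 CPM in obese adipose, 584 CPM in lean adipose and 574 CPM in LN.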

How the data were processed

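Tregs sorted from adipose tissue and LN were sequenced as 5 libraries, 1 per group, per the labels. The mm8 build, TopHat2 2.0.9 and Bowtie2 2.0.6 are named, per the submitters' processing notes. The counter, annotation and strand setting were not given in the sources used here. Overlapping, antisense and near-identical genes can therefore share reads. The authors deposited 3 tables of 2 libraries, each with a scaled read count per gene (a normalized signal) and a log2 fold change. Each library's nonzero deposited values were multiples of the worth of 1 read (100%, tolerance 0.01 read), and values under 1 are listed as 0. Reads behind a listed 0 were recovered from the authors' deposited log2 fold change, in which 0.5 scaled counts stood for no reads. Rows without values were taken as listed at 0.

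Within a table the scaled counts were compared as deposited. Across tables each column was rescaled to a sum of 1000000 (CPM). Obese and lean adipose came from separate tables that hold the same LN library, whose reads were equal for 11805 of 11805 IDs. The pseudocount was 1, the minimum 1 and the size threshold 2-fold. Folds of single genes are ratios without a pseudocount, with 95% Clopper-Pearson intervals. No test between conditions exists with 1 library per group, and no count model was fitted. Symbols came from GENCODE M21 and promoters from RefSeq. Described in full were the receptors, the transcription factors, the member with the most reads in each role, the 8 largest ratios of obese over lean adipose and the 5 largest in each other comparison. The same was done for 6 of 7 fixed pathway genes, the other not being reported here, and the 4 largest per comparison. Other members were described by their range, and any other gene was named after its values were seen. Members, lists and comparisons were chosen with earlier results of these data known. The scripts, tested on simulated data, ran in Python 3.11.15 with pandas 2.3.3, scipy 1.17.1, numpy 2.4.6 and matplotlib 3.10.9.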

Additional observations from a re-analysis of the deposited data

Results flagged for a closer look

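Ifit1 was singled out because its ratio to LN went in opposite directions in obese and lean adipose. The log2 ratio was 1.91 in obese adipose and -1.69 in lean adipose. Behind these values were 675 reads in obese adipose, 54 in lean adipose and 200 in LN. Both ratios use the same LN library, there is 1 library per group, and the difference between them was not tested.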

How the results depend on the processing

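Of 96 counts of members recomputed under other settings, 85 stayed within 1.5 times the value reported, and no named ratio changed sign in 228 recomputations, but 167 of these moved by more than the distance from the middle of the log2 counting interval to its end, or at all where a value listed at 0 gives none. The log2 ratio of Rsad2 in obese over lean adipose, 7.25, was 8.25 with a pseudocount of 0.5 and 4.97 with 5. With a pseudocount of 5, no member was lower in obese than in lean adipose, 4 were lower in the library labelled Med23 KO than in 10-month Foxp3Cre, and 7 were higher in 10-month Foxp3Cre than in lean adipose. That last count was also 7 when 5 CPM or more was required. With each column rescaled to a sum of 1000000, 5 members were lower in the library labelled Med23 KO. Restricting the counts to members above 0 in both libraries, a setting added after the data were seen, left 10 higher in obese than in lean adipose, 5 higher in lean adipose than in LN, 7 higher in obese adipose than in LN, 5 lower in the library labelled Med23 KO than in 10-month Foxp3Cre, and 6 higher and 7 lower in 10-month Foxp3Cre than in lean adipose. This setting drops the members listed at 0 by its construction. The median log2 ratio of members ranged over 0.32 to 0.74 in obese over lean adipose and over 0.17 to 0.89 in the library labelled Med23 KO over 10-month Foxp3Cre. It ranged over -0.10 to 0.62 in obese adipose over LN and over -0.32 to 0.14 in 10-month Foxp3Cre over lean adipose, so neither of these medians kept its sign.

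No paired analysis was possible because each group has 1 library, and no replicate was left out. Of 34 member values listed at 0, 9 stood for 0 reads and 1 for 1 or more, by the reads recovered from the authors' deposited fold changes. For the other 24 no read number was recovered, and these stand for up to 9 reads in the deepest library.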
